A study of Mus musculus with 8 samples.

Results

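The miR-17-92 cluster and its paralogs were described here through 10 mature miRNAs of mouse kidney, chosen by name and grouped by the cluster they come from. They were 6 members of miR-17-92 (mmu-miR-17-5p, mmu-miR-18a-5p, mmu-miR-19a-3p, mmu-miR-20a-5p, mmu-miR-19b-3p and mmu-miR-92a-3p), 3 of miR-106b-25 (mmu-miR-106b-5p, mmu-miR-93-5p and mmu-miR-25-3p) and 1 of miR-106a-363 (mmu-miR-20b-5p), out of 1881 mouse miRNAs on the array. The species prefix is left out below. Kidneys from 4 samples with ischemia-reperfusion injury (IRI) and 4 sham samples were each hybridised to 1 single-colour miRNA microarray. All mice were C57BL/6 males aged 9 weeks. For IRI, which models acute kidney injury, mice lost the right kidney, and the vessels of the left were clamped for 25 or 45 min, then released, and that kidney was collected after 12 or 24 h. Clamp and collection times are not tied to single samples in the labels, so the IRI arrays form 1 group that may mix times. Sham mice had only a midline incision and kept both kidneys, so injury and nephrectomy cannot be told apart. The labels do not say that each sample was a separate animal, so p-values measure the spread between these samples, which may be technical.

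miR-17-92 is a polycistron: a single primary transcript is cut into several hairpins, each of which yields a mature miRNA. MYC and E2F transcription factors are known to switch it on in dividing cells, and its miRNAs repress, among others, the cell cycle inhibitor gene Cdkn1a and the pro-apoptotic gene Bcl2l11. miR-106b-25 is a paralog carried in an intron of Mcm7, a gene of the DNA replication helicase, and miR-106a-363 is a paralog on the X chromosome. In the developing mouse kidney, miR-17-92 is needed for the growth of nephron progenitors.

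The mature sequences are shown because the comparison rests on which seeds the clusters share. Capitals mark the seed, bases 2 to 8 from the 5′ end, through which a miRNA finds its targets. All 10 names matched the RefSeq table of build GRCm38.p6. The members fall into 4 seed groups, and 2 of these groups are present in both miR-17-92 and miR-106b-25.
miR-17-5p: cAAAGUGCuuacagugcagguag
miR-20a-5p: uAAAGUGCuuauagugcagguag
miR-20b-5p: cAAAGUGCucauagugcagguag
miR-106b-5p: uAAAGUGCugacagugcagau
miR-93-5p: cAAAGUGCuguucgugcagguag
miR-18a-5p: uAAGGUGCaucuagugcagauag
miR-19a-3p: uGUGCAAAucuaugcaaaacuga
miR-19b-3p: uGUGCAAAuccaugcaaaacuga
miR-92a-3p: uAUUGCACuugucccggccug
miR-25-3p: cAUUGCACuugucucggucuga

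The first 5 share the miR-17 seed. miR-18a-5p differs from miR-17-5p inside the seed by A4G, counting from 1 at the 5′ end of miR-17-5p. miR-20a-5p differs from miR-17-5p by C1U and C12U, and miR-20b-5p by U10C and C12U. miR-19b-3p differs from miR-19a-3p by U11C alone. In miR-25-3p, over the 21 bases compared, 3 positions differ from miR-92a-3p, none of them in the seed.

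The hairpins of miR-17-92 lie at chr14:115043671-115044506 on the plus strand, in the order miR-17, miR-18a, miR-19a, miR-20a, miR-19b-1 and miR-92a-1, over 836 bases. Those of miR-106b-25 lie at chr5:138165321-138165818 on the minus strand, inside Mcm7 in the RefSeq gene table, in the order miR-106b, miR-93 and miR-25. Those of miR-106a-363 lie at chrX:52741693-52742567 on the minus strand. The mature miR-19b-3p and miR-92a-3p are encoded in both miR-17-92 and miR-106a-363, so their signals cannot be given to 1 locus.

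The array read each member with 2 probes of 15 spots each, and each probe pairs with the 3′ part of its miRNA. Of the 20 probes, 18 matched 1 RefSeq mature mouse miRNA perfectly and 2 matched a pair. These 2 are the miR-17-5p probes, which the scanner files list for miR-106a-5p as well, and miR-106a-5p has no entry of its own on the array. The miR-17-5p entry is therefore a sum of miR-17-5p and miR-106a-5p, a product of chromosome X. The longer probe of each of 4 members is shown because they share their first bases, with capitals at letters that differ from the miR-20a-5p probe at the same position.
miR-20a-5p probe: ctacctgcactataagcac
miR-20b-5p probe: ctacctgcactatGagcacT
miR-17-5p probe: ctacctgcactGt
miR-93-5p probe: ctacctgcacGaACag

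The last letter of the miR-20b-5p probe lies beyond the end of the miR-20a-5p probe. The probes of miR-17-5p, miR-20a-5p, miR-20b-5p, miR-19a-3p and miR-19b-3p each have 1 mismatch to their nearest other member. How far each of these signals includes the relative was not tested.

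Signals below are scanner intensities summed over the probes of a miRNA and scaled so that the 75th percentile of the miRNAs detected on all 8 arrays is the same on every array. Levels are compared between arrays for 1 miRNA, never between miRNAs. The scanner software called all 10 members detected on all 8 arrays. Across the slide, IRI arrays had 393 to 447 detected miRNAs and sham arrays 327 to 379. Sham arrays occupied 1 row of the slide and IRI arrays the other, so slide row and group cannot be told apart. As a check of the tissue, the kidney tubule miRNAs miR-192-5p, miR-194-5p, miR-204-5p, miR-30a-5p and miR-200b-3p were detected on all 8 arrays.

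In the comparison of IRI with sham, the signal ratio of miR-17-92 to miR-106b-25 was higher in IRI. Among the 10 members, 3 were higher in IRI, all from miR-17-92, and 2 were lower, both from miR-106b-25 (limma, adjusted p below 0.05 over the 379 tested miRNAs). Among all tested miRNAs, 12.1% were called higher and 36.7% lower, with a median log2 change of -0.11, so calls lower were more frequent than calls higher on these arrays. With the test limited to the 317 miRNAs detected on all 8 arrays, as the members were, 31 were called higher and 139 lower. The IRI and sham values did not overlap for the same 5 members, where 10.6% of tested miRNAs had all IRI values above and 35.9% all IRI values below the sham values.

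miR-18a-5p, the only member with its seed, had the largest change of the 10. Its scaled signals were 40.0, 55.5, 48.7 and 59.9 on IRI arrays 1, 2, 3 and 18, and 27.9, 24.7, 26.0 and 22.9 on sham arrays 1, 2, 3 and 6. The groups did not overlap, and IRI array 1 lay nearest to the sham arrays. Signals averaged 51.0 ± 8.68 in IRI and 25.4 ± 2.11 in sham (SD, n = 4 each). On sham arrays neither probe of miR-18a-5p was well above background in most of its spots, so the size of its change is not exact. As processed here, it was called higher (adjusted p = 0.00108, limma), at a fitted 1.99-fold. The mean IRI level was 1.95-fold the sham level once dim sham signals were raised to the dimmest signal of any miRNA well above background. That raised sham array 6 alone, so 1.95-fold is not a lower limit. It does not allow for the spread between arrays or for other processing. The 95% interval of the fitted log2 change was 0.69 to 1.30. Its rise ended with normexp background correction, another way to remove background, which here also adds 50 to every corrected spot. There the log2 change was 0.057 (adjusted p = 0.569, limma), and correction and addition were not run apart. The fitted log2 change, which was 0.99 as processed here, was 0.53 with the mean of log2 probe signals, 1.55 in the authors' deposited table and 1.65 with the software's total gene signal, and was called in all 3.

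miR-17-5p, the founding member of its seed group, had signals of 52.2, 56.6, 49.9 and 54.9 on the IRI arrays in the same order, and 43.9, 40.0, 40.8 and 36.7 on the sham arrays. All IRI values lay above all sham values. The log2 change was 0.40 ± 0.07 (adjusted p = 0.00342, limma; ± SE), or 1.32-fold. The shorter of its probes lay below the lowest level used for probes on all 8 arrays, and the longer probe alone changed by 0.31. With normexp background correction and its added 50 per spot, the change of miR-17-5p turned to -0.060. It was 0.16 with the mean of log2 probe signals, 0.63 in the authors' deposited table and 0.72 with the software's total gene signal, and was called in all 3.

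miR-20a-5p, which carries the same seed from the same transcript, had signals of 638.6, 733, 689 and 794 on the IRI arrays, and 595.5, 562, 605 and 556 on the sham arrays. The groups did not overlap, though IRI array 1 came close to the highest sham array. The log2 change was 0.30 ± 0.08 (adjusted p = 0.0158, limma; ± SE), and its probes changed alike, by 0.32 and 0.28. Of 26 alternative settings, 20 kept the miR-20a-5p call and 6 lost it, with log2 changes of 0.19 to 0.62 throughout. With each slide column as a block, the call ended (adjusted p = 0.0551, limma). It ended too in the authors' deposited table, at a log2 change of 0.24 (limma adjusted p = 0.0847). Extending the fit to the array's full set of 1881 left it uncalled as well (limma, adjusted p of 0.0875).

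The other 3 members of miR-17-92 were not called, and their groups overlapped. Signals of miR-19a-3p were 143 to 176 in IRI and 139 to 154 in sham, and those of miR-19b-3p were 1118 to 1253 in IRI and 1042 to 1131 in sham. miR-19a-3p and miR-19b-3p, which share a seed, had log2 changes of 0.15 and 0.13, with 95% intervals of -0.04 to 0.33 and -0.03 to 0.28. miR-92a-3p, which in mice restrains vessel growth, had signals of 292 to 353 in IRI and 278 to 307 in sham, and a change of 0.15 (interval -0.03 to 0.33). miR-20b-5p of miR-106a-363 had signals of 383 to 449 in IRI and 356 to 402 in sham, and its change was 0.10 (interval -0.07 to 0.27). These intervals hold both no change and a rise of about the size of that of miR-20a-5p, so no similarity or difference is shown by the calls alone. Without IRI array 1, miR-19a-3p was called higher (log2 change 0.21, adjusted p = 0.0366, limma).

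**Figure D1:**
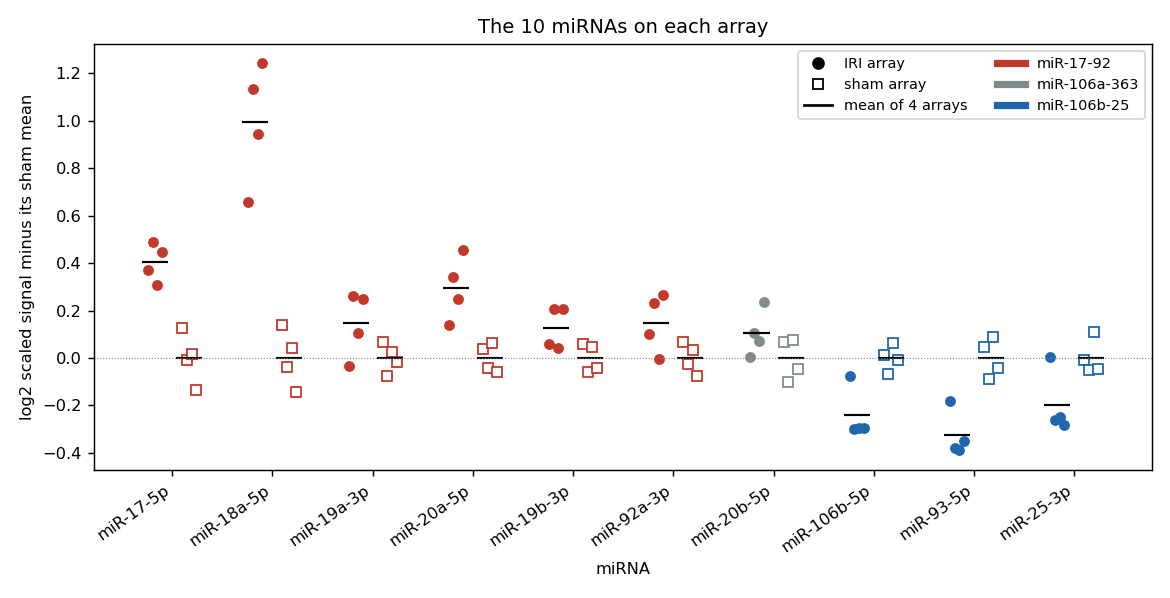
Log2 scaled signal of each of the 10 miRNAs on each array, minus that miRNA's mean over the 4 sham arrays; filled circles are IRI arrays, open squares sham arrays, short lines group means, and colours the cluster. For miR-17-5p, miR-18a-5p and miR-20a-5p all IRI arrays lie above the sham arrays, and for miR-106b-5p and miR-93-5p all lie below.

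In miR-106b-25 the direction, as scaled here, was the opposite. miR-93-5p, another carrier of the miR-17 seed, had signals of 308, 269, 267 and 274 on the IRI arrays, and 360.3, 328, 371 and 339 on the sham arrays. All IRI values lay below all sham values, with array 1 the highest of the IRI group. The log2 change was -0.32 ± 0.07 (adjusted p = 0.00786, limma; ± SE). miR-106b-5p, the first miRNA of this cluster, also with the miR-17 seed, had signals of 407, 348, 350 and 349 on the IRI arrays, and 433, 409, 448 and 426 on the sham arrays. The groups did not overlap, but IRI array 1 lay just below the lowest sham array. The log2 change was -0.24 ± 0.07 (adjusted p = 0.0228, limma; ± SE). This call ended without any 1 of sham array 1, sham array 3, IRI array 2 or IRI array 3 (adjusted p of 0.0574, 0.0635, 0.0645 and 0.054, limma).

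miR-25-3p, the member with the miR-92 seed, had signals of 256, 214, 216 and 210.3 on the IRI arrays, and 254, 247, 276 and 248 on the sham arrays. Only IRI array 1 reached the sham values. The log2 change was -0.20 ± 0.08 (SE), not called (adjusted p = 0.0778, limma), and without IRI array 1 it was -0.26 and called (adjusted p = 0.00942, limma). The 2 probes of each miR-106b-25 member changed in the same direction.

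The falls of miR-106b-25 depended on how arrays were scaled to each other, since sham and IRI arrays differed in overall signal. Over all tested miRNAs, the median log2 change was -0.11 as scaled here, 0.17 for unscaled signals and 0.19 when arrays were scaled to a pair of control probes taken to be the labelling spike-in RNAs. Without scaling, the changes were 0.061 for miR-106b-5p, -0.021 for miR-93-5p and 0.11 for miR-25-3p, none of them called. With the spike-ins they were 0.081, -0.0014 and 0.13, none of them called, and 7 members were called higher. The 3 miR-17-92 members called higher remained called under both of these scalings. Taking the 75th percentile over all miRNAs left miR-18a-5p as the only member called higher. A fall of miR-93-5p or miR-106b-5p is therefore a fall relative to the level to which arrays were scaled. Ranked from the highest log2 change of the 379 tested miRNAs, miR-25-3p, miR-106b-5p and miR-93-5p were at 214, 227 and 260.

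**Figure D2:**
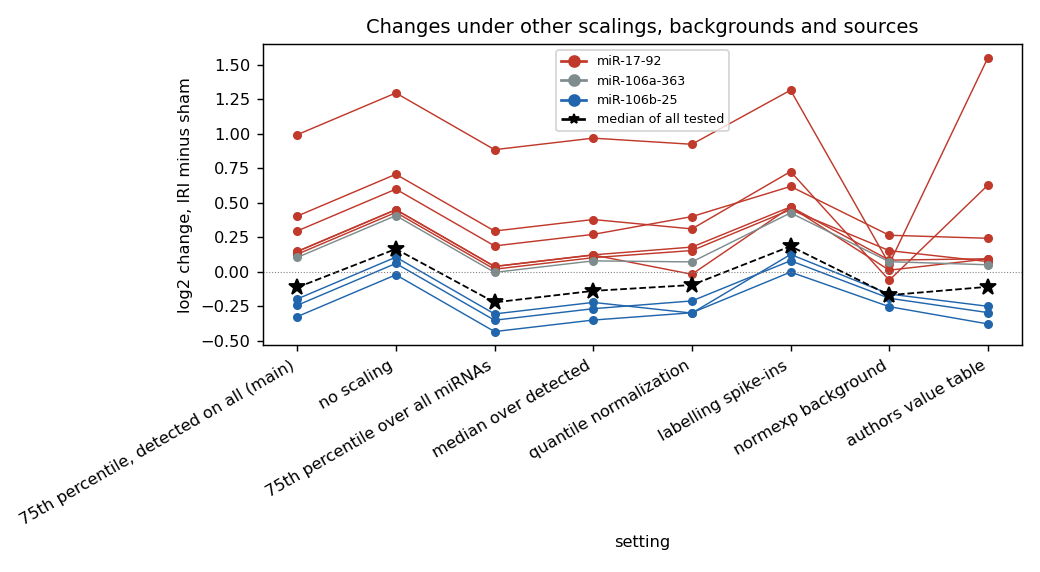
Log2 change, IRI minus sham, of each of the 10 miRNAs (coloured by cluster) and the median of all tested miRNAs (stars) under the main setting and 7 others. Under the settings that only rescale arrays the points move up or down together and the miR-17-92 members keep their distance from the miR-106b-25 members. Normexp background correction, which here also adds 50 to every corrected spot, brings miR-17-5p and miR-18a-5p down to -0.060 and 0.057.

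The distance between the clusters does not depend on the scaling of an array, because a common factor cancels within it. The mean log2 signal of the 6 miR-17-92 members minus that of the 3 miR-106b-25 members, set to a sham mean of 0, was 0.30, 0.76, 0.58 and 0.79 on IRI arrays 1, 2, 3 and 18, and 0.07, 0.03, -0.05 and -0.05 on sham arrays 1, 2, 3 and 6. All IRI arrays lay above all sham arrays, and IRI array 1 was the lowest of its group. The mean difference of 0.61 corresponds to a ratio 1.52-fold higher in IRI, with an SD of 0.22 among IRI arrays and 0.06 among sham arrays. It includes the fitted value of miR-18a-5p, 1.25 relative to miR-106b-25, whose sham signals were not well above background. The size of the cluster ratio is therefore not exact. The relative log2 changes of the other miR-17-92 members were smaller, 0.38 to 0.66. Within each of the 4 slide columns, which held 1 array of either group, the IRI array was higher, by 0.23 to 0.83. With normexp background correction the mean difference was 0.29. No p is given for these means, since the members were chosen with results of these data known.

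Each member was then tested against miR-106b-25 within arrays, by subtracting the mean log2 signal of miR-106b-5p, miR-93-5p and miR-25-3p from every tested miRNA and fitting the whole table again. All 7 remaining members were higher in IRI relative to miR-106b-25, where 25.1% of tested miRNAs were called higher and 16.1% lower, and the median of all tested miRNAs was 0.14. Relative to miR-106b-25 and as processed here, miR-18a-5p was called higher (adjusted p = 0.00123, limma). With dim sham signals raised as above, its mean IRI level was 2.33-fold the sham level, again not a lower limit. The 95% interval of the fitted log2 change was 0.86 to 1.64. For miR-17-5p the relative log2 change was 0.66 ± 0.09 (adjusted p = 0.00151, limma; ± SE). For miR-20a-5p the relative change was 0.55 ± 0.11 (SE; adjusted p = 0.00803, limma). Those of miR-92a-3p, miR-19b-3p, miR-19a-3p and miR-20b-5p were 0.40, 0.38, 0.40 and 0.36, with adjusted p of 0.0144, 0.0135, 0.0288 and 0.0228 (limma). As scaled here, part of every value is the lower miR-106b-25 mean, which all 7 tests share. How each value divides between its member and miR-106b-25 depends on the scaling.

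These relative calls were not equally firm. The miR-19a-3p call ended without any 1 array other than IRI array 1, with an adjusted p up to 0.0782 (limma). The miR-20b-5p call ended without sham array 2, sham array 3 or IRI array 2 (adjusted p up to 0.0603, limma). With normexp background correction the calls of miR-17-5p (0.14), miR-18a-5p (0.26) and miR-19a-3p (0.21) ended, and the other 4 held. Set against miR-25-3p alone, miR-19a-3p and miR-20b-5p were not called.

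**Figure D3:**
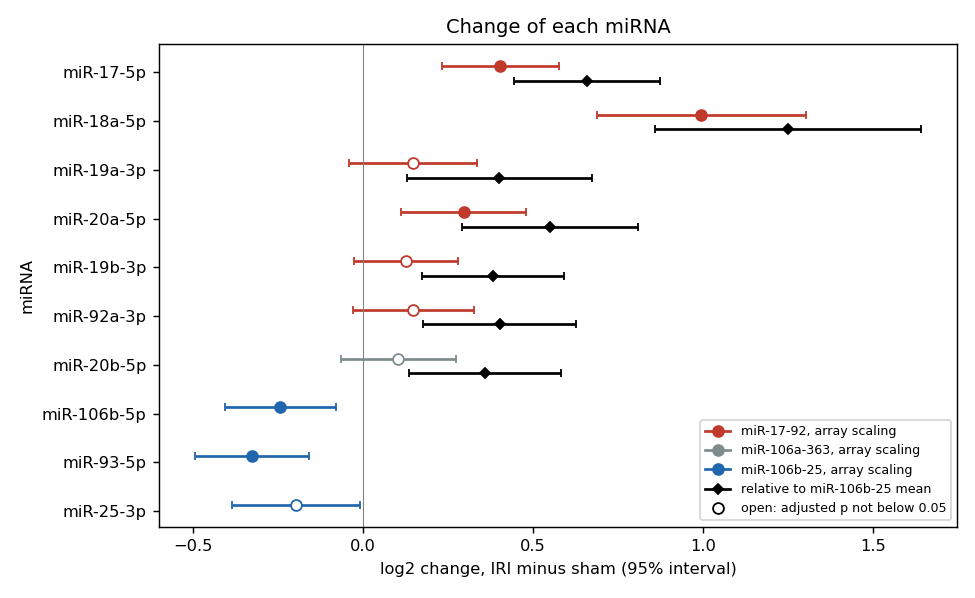
Log2 change, IRI minus sham, with its 95% interval for each miRNA with array scaling (circles, coloured by cluster) and, for the 7 members outside miR-106b-25, relative to the miR-106b-25 mean (black diamonds); filled symbols passed an adjusted p of 0.05. All 7 diamonds lie above 0, the lowest at 0.36 for miR-20b-5p; the miR-18a-5p symbols are fitted values against sham signals not well above background, so their size is not exact.

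The seed groups cut across the clusters, so each shared seed was compared between its carriers. Of the miR-17 seed group, the mean of miR-17-5p and miR-20a-5p minus that of miR-106b-5p and miR-93-5p was 0.38, 0.76, 0.62 and 0.77 on the IRI arrays, and 0.05, 0.05, -0.04 and -0.07 on the sham arrays. This difference was higher on all IRI arrays than on any sham array, and it does not say which carriers changed. Over all 5 carriers together, miR-20b-5p included, the mean was 0.05, 0.05, -0.01 and 0.10 on the IRI arrays, and 0.06, -0.06, 0.06 and -0.06 on the sham arrays, and the groups overlapped. This mean weighs each miRNA alike and is not a sum of molecules.

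In the miR-92 seed group, miR-92a-3p minus miR-25-3p was 0.10, 0.49, 0.24 and 0.55 on the IRI arrays, and 0.08, 0.03, -0.07 and -0.03 on the sham arrays. All IRI values were above the sham values, although that of array 1 exceeded the highest sham value by little. The mean of the pair did not separate the groups, with -0.13 to 0.05 on IRI arrays and -0.06 to 0.07 on sham arrays. For the miR-19 seed group the mean was 0.01 to 0.23 on IRI arrays and -0.07 to 0.06 on sham arrays, which overlapped.

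**Figure D4:**
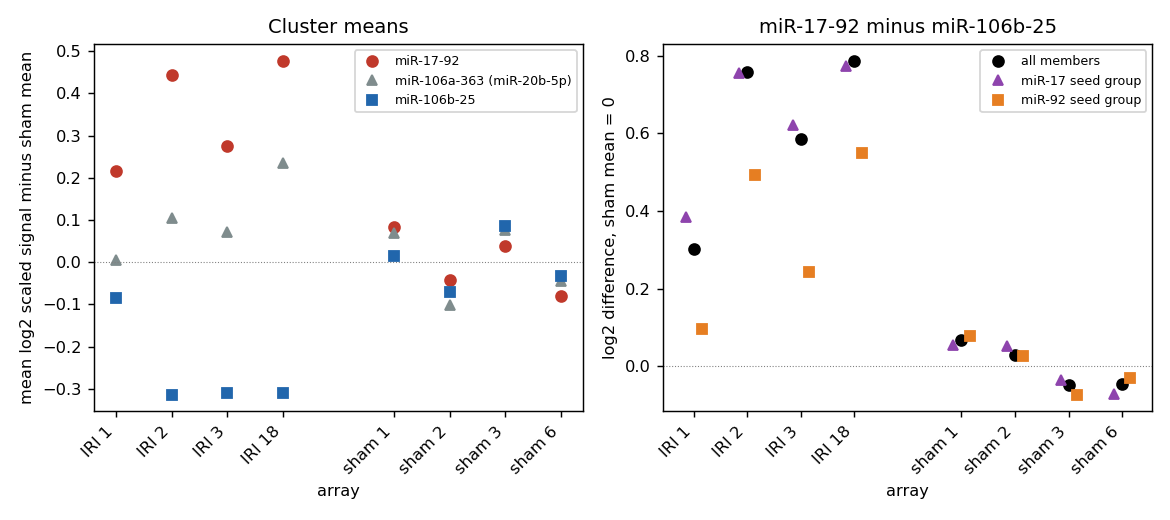
Left, the mean log2 scaled signal of each cluster's members on each array, set to a sham mean of 0. Right, the difference between miR-17-92 and miR-106b-25 over all members, over the miR-17 seed carriers and over the miR-92 seed carriers; all IRI arrays lie above the sham arrays in all 3 differences, and IRI array 1 is the lowest of its group in each.

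The members of miR-17-92 are cut from a common transcript, and their changes were compared with each other. Each of the 6 was set against the mean of the other 5 within arrays and tested over the whole table, a comparison added after seeing the data. As processed here, miR-18a-5p was higher than the rest of its cluster (adjusted p = 0.000492, limma). That fit called 7.92% of tested miRNAs higher and 49.3% lower. With dim sham signals raised as above, the relative rise was 1.67-fold, which is not a lower limit. The miR-18a-5p call held without any 1 array. Its fitted relative log2 change of 0.77 was 1.33 in the authors' deposited table and 0.35 with the mean of log2 probe signals. With normexp background correction it turned to -0.034. miR-19a-3p was lower than the rest (-0.25, adjusted p = 0.0408, limma), in a fit where 5.28% of tested miRNAs were called higher and 57.8% lower. miR-19b-3p was lower too (-0.27, adjusted p = 0.0343, limma), in a fit with 5.28% higher and 57.3% lower. Being lower was thus the commonest outcome in both fits, and both calls ended without any 1 array other than IRI array 1. miR-17-5p, miR-20a-5p and miR-92a-3p were not called against the rest (adjusted p of 0.658, 0.578 and 0.0501, limma), in fits that called 6.07%, 5.8% and 5.28% of tested miRNAs higher and 53.8%, 54.6% and 57% lower.

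Of 18 other products of the 3 clusters, 17 had an entry and 1 was tested, the opposite arm of the miR-17 hairpin. miR-17-3p had signals of 71.9, 67.6, 65.1 and 65.8 on the IRI arrays, and 59.8, 55.4, 57.1 and 50.4 on the sham arrays. The groups did not overlap, and the log2 change was 0.28 ± 0.07 (adjusted p = 0.0122, limma; ± SE). Whether its probes also match other miRNAs was not tested. Its sequence is shown because the RefSeq table places it in the chromosome 14 hairpin alone, with the seed in capitals.
miR-17-3p: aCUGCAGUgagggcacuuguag

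miR-20a-3p, the opposite arm of miR-20a, was detected on 2 IRI arrays and on 0 sham arrays and was not tested. The other 15 products with an entry were detected on no array. Among them was miR-363-3p, the miR-92 seed carrier of miR-106a-363.

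Of 6 other miRNAs on the array with a member's seed, miR-32-5p alone was detected. It shares the miR-92 seed and comes from chromosome 4.
miR-32-5p: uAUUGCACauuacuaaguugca

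miR-32-5p had signals of 47.9, 45.2, 45.2 and 40.7 on the IRI arrays, and 73.1, 66.3, 63.5 and 56.5 on the sham arrays. All IRI values lay below all sham values, at a log2 change of -0.53 ± 0.09 (± SE, limma adjusted p = 0.00272). Without scaling or with the spike-ins it was not called (log2 changes of -0.23 and -0.21). Of the detected carriers of the miR-92 seed, miR-32-5p was called lower as scaled here, and miR-92a-3p and miR-25-3p were not called.

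Among 307 other miRNAs detected on all 8 arrays, the one whose values lay nearest to the miR-17-92 mean was miR-17-3p, with a root mean square difference of 0.12 in log2 signal over the 8 arrays. miR-1894-3p and miR-7011-5p followed, both at 0.16. Nearest to the miR-106b-25 mean were miR-331-3p (0.04), miR-23a-3p and miR-30d-5p (both 0.06), whose log2 changes were -0.28, -0.24 and -0.30. The last is a tubule-rich member of the miR-30 family.

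Markers of other cell types were read on the same arrays. Of 5 leukocyte miRNAs, 1 was called, miR-223-3p, which was higher in IRI, with mean signals of 370 in IRI and 127 in sham. The others were not called and differed in direction. miR-142a-3p and miR-142a-5p had log2 changes of 0.29 and 0.19, and miR-150-5p and miR-342-3p of -0.57 and -0.14. The summed signal of the leukocyte list, in which bright miRNAs weigh most, was 764 to 1115 in IRI and 569 to 731 in sham. All 3 red blood cell miRNAs were higher, with sums of 2940 to 4087 in IRI and 41.1 to 902 in sham. All 5 kidney tubule miRNAs were lower, with sums of 12614 to 14273 in IRI and 17412 to 20068 in sham, and both endothelial miRNAs were lower, with sums of 3836 to 4321 in IRI and 4623 to 5333 in sham. The share of all tested miRNAs was 12.1% called higher and 36.7% called lower, as above. Without scaling or with the spike-ins, 0 of the 5 tubule and 0 of the 2 endothelial miRNAs were called lower, while the same numbers of red blood cell and leukocyte miRNAs were called higher. Of these lists, miR-486a-5p (4 IRI arrays, 0 sham arrays) and miR-144-3p (4 IRI arrays, 2 sham arrays) of red blood cells were the members not detected everywhere. Both entered the test only because all IRI arrays, where they were high, detected them, so their calls are no independent support. The sham signals of miR-486a-5p, 0.30 to 9.14, all lay below the floor of 17.3. The liver miRNA miR-122-5p had a signal of 33.5 on IRI array 1, where alone the software detected it, and -1.56 to -0.69 on the other IRI arrays, against -6.05 to 0.31 on sham arrays. The part of these cell types in the changes of miR-17-92 and miR-106b-25 was not tested. In kidney tissue, fewer cells of a type and less of a miRNA per cell cannot be told apart.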

How the data were processed

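Total RNA from 30 mg of kidney was labelled with Cy3 (100 ng), per the labels' protocols, and all 8 arrays lay on 1 slide, per the file headers. Each deposited scanner file gives linear spot intensity, background-subtracted and not normalized between arrays per the file headers; the submitters' processing notes name Agilent Feature Extraction 12.0.3.1. A second deposited table, used only as an alternative, lists 1 ratio per miRNA and array on a linear scale, with undetected entries at 1 constant per array. Its medians were 0.658, 0.646, 1.16 and 0.749 for IRI arrays 1, 2, 3 and 18, and 0.859, 1.23, 1.29 and 1.297 for sham arrays 1, 2, 3 and 6; how it was scaled and centred is unknown.

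Left out were control spots and, per array, 1422 to 1560 outlier spots of 56430 in all; 0 were saturated. Signals were averaged per probe, summed per miRNA, divided by each array's 75th percentile (taken over 317 miRNAs that every array detected), raised to a floor of 17.3 and taken to log2. A miRNA was tested if either group had it detected on all of its 4 arrays (379 miRNAs), using limma 3.58.1 in R 4.3.3, two-sided, with Benjamini-Hochberg adjustment and a threshold of 0.05. Detection is the scanner software's call. The raised sham signals of miR-18a-5p were, per array, its own signal or, where higher, the dimmest signal of any miRNA well above background. A miRNA not well above background can exceed that dimmest signal. The fold values from them are therefore neither lower limits nor confidence limits. In simulated data the fit called 16 of 20 miRNAs changed 1.5-fold, 18 of 20 at 2-fold and 20 of 20 at 4-fold. Of 319 unchanged miRNAs it called 0. Changes below 1.5-fold, such as those of most members, were not simulated.

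The members and lists were chosen with earlier results of these data known. By rule, the named miRNAs are the 10 members, detected miRNAs of the cluster product and seed lists, and the 3 nearest to each cluster mean; miR-363-3p and the marker miRNAs fall outside it and were named after their values were seen. Shared replicate numbers 1, 2 and 3 were not taken as pairs in the main fit (correlation of deviations -0.16, -0.20 and 0.24). IRI array 18 and sham array 6, which share a slide column but no number, correlated at 0.50. Arrays of different columns reached 0.41. These values cannot show whether samples were paired. Alternatives covered scaling, background correction, probe summary, filters, floor, variance model, blocks and left-out arrays. The spike-in probes, dmr_285 and dmr_31a, were identified from knowledge of the kit, not from the files. With 4 arrays a group, the number of arrays sets the precision.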

Additional observations from a re-analysis of the deposited data

Results flagged for a closer look

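IRI array 1 stood apart from the other 3 IRI arrays for 2 of the members, among 24 groups of 4 values checked; chance flags about 1 group in 20. miR-106b-5p had a signal of 407 on IRI array 1 and 348 to 350 on the other IRI arrays. miR-25-3p had a signal of 256 on IRI array 1 and 210.3 to 216 on the other IRI arrays. Among the markers, miR-122-5p of liver had a signal of 33.5 there, and none of the other 7 arrays detected it.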

How the results depend on the processing

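In the main setting 46 miRNAs were called higher and 139 lower, with 3 members higher, 2 lower, and 7 higher relative to miR-106b-25. Without scaling, 1 miRNA was lower and 0 members were lower, and miR-106b-5p and miR-25-3p turned to 0.061 and 0.11. With the spike-ins 72 were higher and 2 lower, 7 members were higher and 0 lower, and the same pair turned to 0.081 and 0.13. The 75th percentile over all miRNAs left 1 member higher and turned miR-20b-5p to -0.0036. The median as scaling left 1 member lower. Quantile normalization turned miR-19a-3p to -0.017. With normexp 18 miRNAs and 1 member were higher, 4 members were higher relative to miR-106b-25, miR-17-5p turned to -0.060, and the cluster difference was 0.29 over all members and 0.32 in the miR-17 seed group. That setting changes the background method and adds 50 to every corrected spot, and these were not run apart. The mean of log2 probe signals gave 30 higher. Testing all 1881 miRNAs gave 21 higher, 90 lower and 1 member lower. Against the rest of the cluster, miR-17-5p turned to -0.017, -0.18 and -0.10 and miR-20a-5p to 0.090, 0.22 and 0.076 with quantile, normexp and the probe mean, while normexp turned miR-18a-5p to -0.034 and miR-19b-3p to 0.082. Replicate numbers were shared by 3 arrays of either group: with the replicate block 17 were higher, 50 lower, 1 member higher, 0 lower and 2 higher relative to miR-106b-25, and on those 6 arrays with no replicate block 1 member was lower and 3 were higher relative to miR-106b-25. Leaving out single arrays gave 36 to 62 higher, 114 to 145 lower, 3 to 4 members higher, 1 to 3 members lower and 5 to 7 higher relative to miR-106b-25, and a cluster difference of 0.55 to 0.71. The causes of these changes were not tested. The cluster difference was 0.29 to 0.76 over the alternatives run, but many of them could not move it. Rescaling cancels within an array, and filters, the variance model and the slide column block do not enter the member means. Among settings that could move it, it was 0.59 with quantile normalization, 0.29 with normexp and 0.49 with the probe mean. It was 0.76 with total gene signal and in the authors' table. Of the members, miR-17-5p and miR-18a-5p alone had probe signals below the lowest level used for probes. The part this played was not tested.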
